A study of Mus musculus with 4 samples.

Results

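Interferon response genes are the genes that cells switch on when an interferon binds its receptor. They were described here in single Kit+ CD45.2+ mouse bone marrow cells. The list named 39 genes, and its members were the rows of the deposited matrices that carry one of those symbols. Of these, 37 were found among 32285 gene features, and Mx1 and Mx2 were not analysed here. Cells were taken 10 weeks post-transplantation, stained with barcoded antibodies and read with the 10x Genomics 3′ version 3.1 chemistry. There were 4 groups with 1 library each: a control, an Mll3-deleted, an Mll4-deleted and an Mll3/4-deleted group. All 4 share the transplanted setting, the Kit+ sort and the CD45.2 allele, which marks cells by their form of the CD45 surface protein. Mll3 (gene Kmt2c) and Mll4 (gene Kmt2d) are sister enzymes that methylate histone H3 at enhancers. The Cre driver, the deleted exons, the strain and age of the mice and the number of animals behind each library are not given in the sources used here. With 1 library per group, no difference has a replicate check: what is compared is one library with another, and every interval covers counting error only. Each library is called below by its label.

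Type I interferons bind the receptor pair Ifnar1 and Ifnar2 and act through the kinases Jak1 and Tyk2. The signal reaches Stat2, which joins Irf9 in a complex that binds a DNA motif called the interferon-stimulated response element (ISRE). Type II interferon binds Ifngr1 and Ifngr2 and acts at a second motif, the gamma-activated site (GAS). The members include the transcription factors of this pathway (Stat2, Irf9, Irf7) and sensors of foreign nucleic acid (Ifih1, Ddx58, Dhx58, Zbp1, Ifi203, Ifi204). They also include the ubiquitin-like protein Isg15 and its protease Usp18, the RNA-binding IFIT proteins, the 2′-5′ oligoadenylate synthetase (OAS) family, and the interferon-inducible GTPases (Irgm1, Irgm2, Igtp, Iigp1, Ifi47, Gbp2, Gbp7). Haematopoietic stem cells are known to carry a basal interferon signature and to respond to both interferon types.

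Promoter sequence was available for 28 of the 39 listed members, from RefSeq on GRCm38.p6. In the 250 bases before the annotated start, searched on both strands, the ISRE pattern (GAAA, any 2 bases, GAAA) occurred in 15 of 28 members (53.6%) and in 3.46% of 27025 genes. The GAS pattern TTCNNNGAA occurred in 7 of 28 members (25%) and in 8.13% of genes. The 2 patterns can overlap in a promoter, and a match is a description of the letters and not of binding. Irf9, Irf7, Ifih1, Ddx58, Oasl1, Oasl2, Ifi47, Cmpk2, Xaf1, Lgals3bp and Ifi35 had a promoter sequence and no match to either pattern. Some of them, such as Ddx58, Ifih1, Xaf1 and Lgals3bp, are called in comparisons below. The windows below are examples taken only from members with a match. They run 5′ to 3′ on the strand of the gene with the motif in capitals, and a TTTC form is the ISRE pattern read on the other strand.
Isg15, ISRE: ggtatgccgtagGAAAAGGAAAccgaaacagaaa
Ifit1, ISRE: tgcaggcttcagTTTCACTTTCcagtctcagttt
Ifit3, ISRE: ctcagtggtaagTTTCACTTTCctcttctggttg
Gbp2, ISRE: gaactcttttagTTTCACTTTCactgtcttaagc
Irgm1, ISRE: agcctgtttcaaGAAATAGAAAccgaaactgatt
Igtp, ISRE: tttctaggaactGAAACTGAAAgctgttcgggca
Irgm2, ISRE: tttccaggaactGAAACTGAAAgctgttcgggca
Psmb8, GAS: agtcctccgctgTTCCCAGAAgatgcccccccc

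The Isg15 window lies at chr4:156200875-156200908 on the minus strand, and its motif begins 78 bases before the start, the first of 3 overlapping matches. The Ifit1 window is at chr19:34640773-34640806 on the plus strand, with the motif 104 bases before the start and a second match at 85. Ifit3 has the match shown 156 bases before the start, at chr19:34583361-34583394 on the plus strand, and a second at 122. Gbp2 has it at 59 bases, at chr3:142620592-142620625 on the plus strand. The Irgm1 window, at chr11:48871429-48871462 on the minus strand, has its motif at 30 bases and a second, overlapping match at 24. Igtp (chr11:58199510-58199543, plus strand, motif at 34 bases) and Irgm2 (chr11:58214901-58214934, plus strand, motif at 64 bases) lie close together on chromosome 11 and carry the same motif letters. A GAS match lies beside the ISRE in both, beginning 45 bases before the start in Igtp and 75 in Irgm2. Psmb8, the member with the largest UMI count, had no ISRE match in its window and a GAS match 97 bases before the start, at chr17:34198086-34198118 on the plus strand.

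The libraries held 6622 to 10001 barcodes and 36413830 to 174795636 gene UMIs. After filters on genes, UMIs and mitochondrial share and the removal of 299 to 622 likely doublets per library, 7146 control cells were kept. The kept cells numbered 5860 in the Mll3-labelled, 5350 in the Mll4-labelled and 6917 in the Mll3/4-labelled library, with median depths of 15754, 16963.5, 5142 and 9965 UMIs in the order control, Mll3, Mll4 and Mll3/4. Every list of 4 values below keeps this order. Libraries shared 9 to 24 barcodes per pair. Kmt2c over all cells was at 47.9, 27.2, 59.2 and 34.8 CPM (UMIs summed over cells and scaled to a common library total), lower in the 2 libraries labelled for its deletion. Kmt2d was at 25.8, 21.6, 25.0 and 24.7 CPM, so that the library labelled Mll4 deleted was close to control. A 3′ count outside the deleted part checks nothing, and the deleted exons are not given. Directions drawn for the Mll4-labelled library therefore rest on its label. Each library also held cells tagged with 2 hashtag antibodies in similar numbers, and the labels do not say what the hashtags mark. Xist, which female cells make, was at 990, 955, 0.52 and 1839 CPM. The Mll4-labelled library stood apart, and sex and label cannot be told apart there.

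Cells were grouped by clustering without the interferon genes, and clusters were named from marker genes. B-cell progenitor-like cells numbered 471, 370, 143 and 6831 (median 4389, 6481, 2276 and 9936 UMIs), or 6.59%, 6.31%, 2.67% and 98.76% of kept cells. All 10 B-cell progenitor markers were found, and their summed level in this class was 14831, 12600, 9794 and 12584 CPM. Cells like haematopoietic stem cells and multipotent progenitors (HSC/MPP-like) numbered 1421, 1024, 475 and 13, with summed markers at 1564, 1552, 1689 and 2017 CPM. The Mll3/4-labelled library thus gave only levels, and no ratio, for stem cells. Counts of a gene are given as CPM of the UMIs summed over the cells of a class. A ratio is on the log2 scale with 1 CPM added to each side, and its 95% interval is an exact binomial one without that addition. A member passed the count filter when about 20 UMIs were to be had in the smaller library at the mean level of the pair. It was then called higher or lower at 1.5-fold or more.

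Across cell types in control, the 37 members together were highest in B-cell progenitor-like cells, T/NK-like cells and HSC/MPP-like cells. The summed level was 1883 CPM (95% counting interval 1836 to 1931) in B-cell progenitor-like cells, 1837 (1687 to 1997) in 50 T/NK-like cells and 1778 (1760 to 1796) in HSC/MPP-like cells. The T/NK-like interval overlaps the other two, which do not overlap each other. Basophil/mast-like cells were at 1403, monocyte-like cells at 1360, granulocyte progenitor-like cells at 1112 and megakaryocyte-like cells at 1094 CPM. Erythroid-like cells were at 705 CPM, and neutrophil-like cells were lowest at 371 CPM (363 to 379). The highest value in any library was that of 103 conventional dendritic-like cells in the Mll4-labelled library, 3273 CPM (3080 to 3476). Of these cells 88 carried hashtag 2 and 11 hashtag 1, against 2382 and 2714 cells over that library. The cDC-like class held 1 to 4 cells in each of the other libraries.

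**Figure D1:**
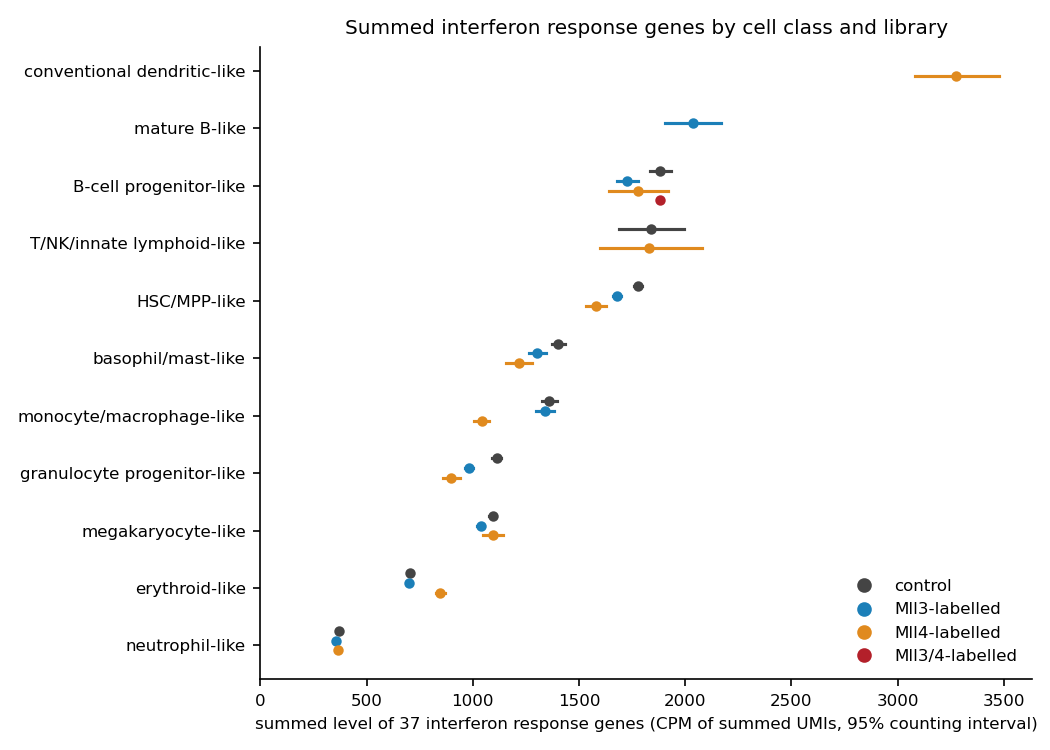
Summed level of the 37 interferon response genes (x axis, CPM of summed UMIs) in each cell class (y axis) of at least 50 cells, coloured by library, with 95% counting intervals as lines. In control, neutrophil-like cells sit at 371 CPM and B-cell progenitor-like cells at 1883 CPM, and the conventional dendritic-like cells of the Mll4-labelled library lie furthest right at 3273 CPM.

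A few members set the sum. Psmb8, a subunit of the immunoproteasome, made up 37.7% of member UMIs over all control cells, 29.3% in control B-cell progenitor-like cells and 55.1% in granulocyte progenitor-like cells. It was at 724 CPM in monocyte-like, 664 in HSC/MPP-like, 551 in B-cell progenitor-like and 137 in neutrophil-like control cells. Bst2, which tethers budding virus to the cell surface, was at 192, 186, 121 and 9.7 CPM in those same 4 classes.

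Single members had cell-type patterns of their own. Ifi27l2a, a small membrane protein, was at 265 CPM in B-cell progenitor-like, 136 in T/NK-like, 25.3 in HSC/MPP-like and 1.5 in erythroid-like control cells. Ifi203, a DNA-binding protein, was at 220 CPM in B-cell progenitor-like and 189 in HSC/MPP-like cells, against 2.2 in neutrophil-like cells. Lgals3bp, a secreted galectin-binding glycoprotein, was at 55.3 CPM in HSC/MPP-like, 44.0 in erythroid-like, 9.1 in B-cell progenitor-like and 1.4 in neutrophil-like cells. Cmpk2, a nucleotide kinase, reached 22.6 CPM in neutrophil-like cells, which were low for most other members. Of the 37 members, 11 had their highest control level in B-cell progenitor-like, 13 in T/NK-like, 5 in HSC/MPP-like and 8 in one of the other classes. The T/NK-like class rests on few cells.

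Between the B-cell progenitor-like and HSC/MPP-like cells of control, the members split evenly. Of 33 that passed the count filter, 7 were higher in B-cell progenitor-like cells, where 16.9% of all genes tested were, and 7 were lower, against 20.7%. The member median was 0.07. Among those on the B-cell side were Ifi27l2a (log2 ratio 3.34), Xaf1, a pro-apoptotic factor (1.33), Usp18 (0.99) and Zbp1, a sensor of Z-form nucleic acid (0.95). On the stem cell side were Lgals3bp (−2.48), Oasl2 (−2.19), Ifih1, the sensor of long double-stranded RNA also called MDA5 (−1.39), and Ifi47 (−0.75). Among Mll3-labelled cells 4 of 29 members were on the B-cell side and 10 on the stem cell side, against 15% and 22.5% of all genes. In the Mll4-labelled library 3 were higher and 1 lower of 8, against 20.3% and 15%.

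Over all kept cells, the members were higher in the Mll3/4-labelled library than in control. The summed level was 935, 896, 790 and 1862 CPM. Without Psmb8 and Bst2 it was 449, 446, 504 and 1203 CPM, so the rank of the Mll3/4-labelled library did not rest on those 2 genes. All 37 members passed the count filter against control. Of these, 23 were higher, where 22.4% of all genes tested were, and 4 were lower, against 23.4%. The member median was 0.90, and that of all 13988 genes was 0.002. Scaling by the trimmed mean of M values (TMM) gave 21 higher, 4 lower and a median of 0.85. Of the cells of this library 98.76% were B-cell progenitor-like, against 6.59% in control. In sums over all cells, fewer cells of a type and less RNA per cell cannot be told apart.

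Ifi27l2a was furthest from control on this scale, at 13.9, 20.7, 18.4 and 241 CPM (log2 ratio 4.02 for Mll3/4 against control). Ifit3 was at 0.456, 0.235, 0.610 and 10.6 CPM (3.0), and without the added 1 CPM its interval, 4.19 to 4.92, lay above the 4.05 to 4.18 of Ifi27l2a. Ifi203 stood at 45.6, 39.2, 37.5 and 286 CPM (2.62). In these genes the first 3 libraries were close together and the Mll3/4-labelled library was far above them. The same held for Ifit1 at 2.53, 2.51, 2.53 and 20.6 CPM (2.61), for Usp18 at 3.07, 2.79, 3.66 and 19.0 CPM (2.29), and for Zbp1 at 2.86, 2.68, 3.02 and 16.2 CPM (2.16). Isg15 differed less, at 8.73, 12.3, 6.38 and 19.3 CPM (1.06). By role, all 3 IFIT genes, both genes of the Isg15 system and 6 of 7 GTPases were higher, but only 2 of 5 OAS genes and 1 of 3 transcription factors, Irf7. The 4 lower members were Ifih1 (16.8 to 6.01 CPM, −1.34), Oas2 (−1.0), Bst2 (−0.73) and Lgals3bp (−0.62). Some of these calls were near the limit. Of 9 alternative settings, the ratio stayed past 1.5-fold in only 2 for Irgm2, a GTPase counted as higher. For Oasl1, one of the OAS genes counted as higher, and for Lgals3bp it did so in 5.

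Within the B-cell progenitor-like class the median ratio was near 0, and members lay on both sides of it. The summed level of the 37 members in that class was 1883 (1836 to 1931), 1728 (1680 to 1776), 1777 (1641 to 1921) and 1881 (1871 to 1891) CPM, and control and the Mll3/4-labelled library overlapped. Without Psmb8 and Bst2 the sums were 1211, 1144, 1227 and 1218 CPM. Of 32 members past the count filter for the Mll3/4-labelled library against control, 4 were higher, where 12.6% of all genes tested were, and 5 were lower, against 15.3%. The other 23 lay between. Of the 32, 31 had at least 20 UMIs in both groups. The exception was Ifit3, called higher, which had 19 UMIs in control and passed through its level in the Mll3/4-labelled library. The member median was −0.06 and that of all genes −0.05. TMM scaling shifted every ratio up by 0.12 and gave 5 higher, 3 lower and a median of 0.06, with Stat2 and Bst2 no longer called. The shares of members called were near those of all genes under the main scaling.

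**Figure D2:**
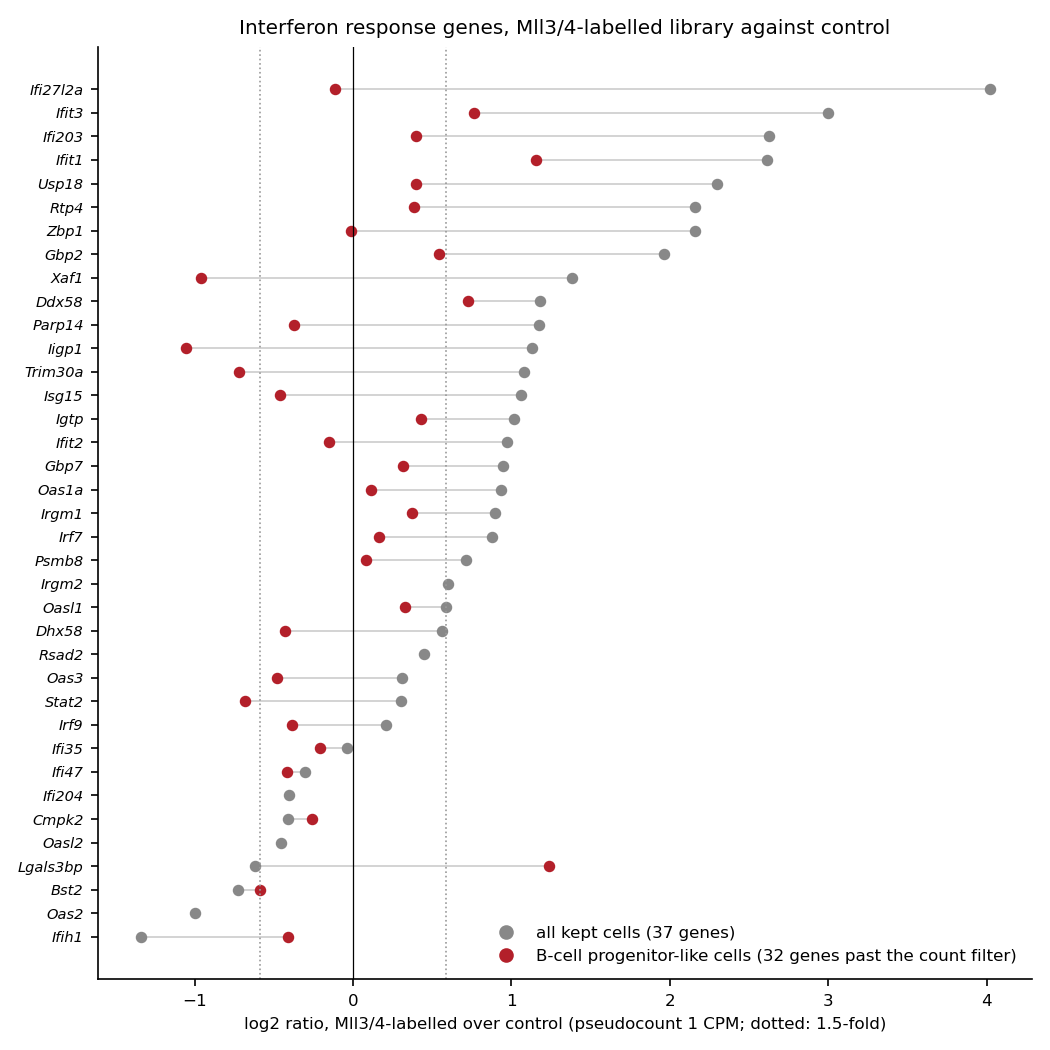
Log2 ratio of the Mll3/4-labelled library over control (x axis, 1 CPM added) for each interferon response gene (y axis), in all kept cells (grey) and in B-cell progenitor-like cells (red), with dotted lines at 1.5-fold. Ifi27l2a lies at 4.02 over all cells and at −0.11 within the class, and Xaf1 and Iigp1 are among those that change sign between the 2 sets.

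In the paragraphs that follow, values of the Mll4-labelled library rest on few UMIs for most members, such as 7 for Irf7 and 2 for Ddx58. Only 7 of 37 members passed the count filter against control there, so its place in an order of libraries is uncertain. Among the transcription factors, Stat2 in B-cell progenitor-like cells was at 16.7, 12.1, 16.8 and 10.0 CPM. It was lowest in the Mll3/4-labelled library, with a log2 ratio to control of −0.68 (95% interval −1.14 to −0.30). Irf9 was at 37.1, 29.2, 44.9 and 28.2 CPM (−0.38, −0.66 to −0.12), under the 1.5-fold limit. Irf7, which amplifies the type I response, was at 9.11, 7.64, 19.7 and 10.3 CPM (0.16, −0.35 to 0.77), and the interval for Mll3/4 against control holds 0. Stat2 was thus the one factor of the 3 called lower.

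Among the sensors, Ddx58 (RIG-I, which detects RNA with a 5′ triphosphate) was at 16.0, 11.8, 5.61 and 27.2 CPM. The Mll3/4-labelled library was highest, 0.73 above control on the log2 scale (0.36 to 1.19). The other RNA sensors did not reach 1.5-fold, Ifih1 being at 8.17, 5.21, 11.2 and 5.90 CPM and Dhx58 at 11.0, 7.64, 11.2 and 7.92 CPM. Zbp1, far above control over all cells, was at 16.7, 18.7, 5.61 and 16.5 CPM in the class. Ifi203 was at 220, 213, 211 and 291 CPM (0.40, 0.29 to 0.51). It belongs to a family of near-identical genes, among which reads could be split.

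The IFIT genes, whose proteins bind foreign RNA ends, were among those called higher. Ifit1 was at 8.80, 4.17, 14.0 and 20.8 CPM (Mll3/4 over control 1.16, 0.71 to 1.84), highest in the Mll3/4-labelled library. Ifit3 was at 5.97, 1.04, 2.81 and 10.8 CPM (0.76, 0.21 to 1.60). For both genes the Mll3-labelled library was lowest, though Ifit3 had only 3 UMIs there, 1 in the Mll4-labelled library and 19 in control. Ifit2 did not follow them, at 22.0, 14.9, 22.5 and 19.7 CPM. Isg15, a ubiquitin-like modifier, was at 27.3, 22.9, 28.1 and 19.6 CPM (−0.46, −0.79 to −0.15), while its protease Usp18 was at 14.5, 4.86, 11.2 and 19.4 CPM (0.40, 0.00 to 0.88). These 2 partners lay on opposite sides of control, both under 1.5-fold. The IFIT family has close paralogs, so counts of its members are uncertain in the same way as those of Ifi203.

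The OAS family includes enzymes that make the signal that activates RNase L, and none of its genes was called in the class. Oas1a was at 7.23, 12.1, 8.42 and 7.92 CPM and Oasl1 at 8.80, 6.25, 11.2 and 11.3 CPM. Oas3 was at 8.17, 2.43, 0 and 5.57 CPM. The 0 for Oas3 came from a class of few UMIs in the Mll4-labelled library, which allows up to 8.42 CPM.

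The GTPases attack vacuoles of intracellular pathogens, and their members went in different directions. Iigp1 was at 23.9, 9.03, 33.7 (12 UMIs) and 11.0 CPM, with both libraries labelled for Mll3 deletion below control. It was called lower in the Mll3/4-labelled library (−1.06, −1.46 to −0.76). Irgm1 was at 31.7, 9.37, 33.7 and 41.3 CPM (0.37, 0.10 to 0.68), low only in the Mll3-labelled library. Gbp2 was at 20.1, 15.6, 75.8 and 29.8 CPM (0.54, 0.21 to 0.95) and Gbp7 at 61.6, 47.2, 92.6 and 76.8 CPM (0.31). For both guanylate-binding proteins the Mll4-labelled library had the highest level, from 27 UMIs of Gbp2 and 33 of Gbp7.

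Among the other targets, Lgals3bp was at 9.11, 10.1, 19.7 and 22.9 CPM (1.24, 0.80 to 1.91), with control and the Mll3-labelled library close together and lowest. Xaf1 was at 64.4, 42.3, 78.6 and 32.7 CPM (−0.96, −1.18 to −0.77). Trim30a, a ubiquitin ligase that limits inflammatory signalling, was at 98.7, 80.5, 92.6 and 59.5 CPM (−0.72, −0.90 to −0.56). Both were lowest in the Mll3/4-labelled library. Bst2 stood at 121, 104, 75.8 and 80.1 CPM (−0.59, −0.74 to −0.44), just past 1.5-fold. Ifi27l2a, at 265, 379, 174 and 245 CPM, differed little between control and the Mll3/4-labelled library. The most abundant member, Psmb8, was at 551, 479, 474 and 583 CPM.

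Of the remaining members, Cmpk2, Rtp4, Parp14, Ifi35, Igtp and Ifi47 passed the filter and had log2 ratios from −0.41 to 0.43. Ifi204, Oas2, Oasl2, Irgm2 and Rsad2 did not pass, with 1 to 18 UMIs in control B-cell progenitor-like cells. Here and below, a call counts as kept where the ratio stayed past 1.5-fold on the same side, without applying the count filter again. Over the 15 alternative settings that apply to this class, Lgals3bp and Xaf1 kept theirs in all 15 and Ifit1 in 14. Ddx58, Iigp1 and Trim30a kept it in 13 each, Ifit3 in 11, Stat2 in 10 and Bst2 in 9. With the filter applied to cells thinned to 2000 UMIs, 18 members passed. Of these, 1 was higher and 4 lower, against 546 and 972 of 5390 genes tested. The calls kept on the ratio alone were thus not all kept under the filter. Against control cluster 15 alone Iigp1 was at −0.23 and Trim30a at −0.15.

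**Figure D3:**
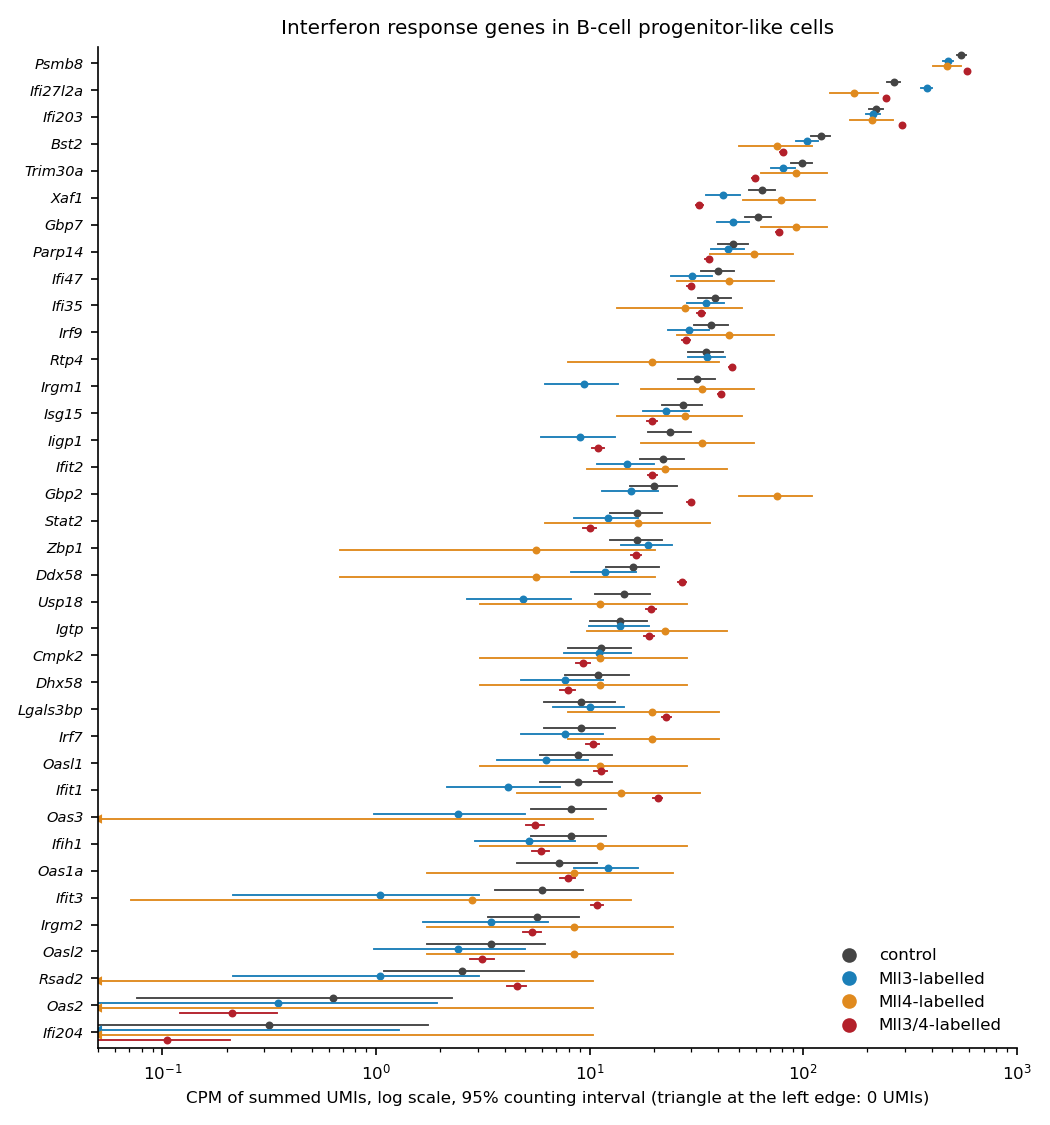
Level of each member (y axis) in B-cell progenitor-like cells of the 4 libraries (x axis, CPM of summed UMIs on a log scale, 95% counting intervals as lines, triangles for 0 UMIs). Intervals are widest for the 143 cells of the Mll4-labelled library, and the red points of the Mll3/4-labelled library lie right of control for Lgals3bp and Ifit1 and left of it for Xaf1 and Iigp1.

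The class is made of clusters that differ between libraries. The B-cell progenitor-like cells of control, Mll3 and Mll4 fell almost wholly into clusters 0 and 15, and those of the Mll3/4-labelled library into clusters 22 to 26, so the latter may be that library and not a type. Among the 10 leading genes of a cluster, cluster 0 had 6 markers of the class and cluster 15 had 2. Cluster 25 had 1, and clusters 22, 23, 24 and 26 had 0, so the class may join unlike cells. Cluster 0 had low Mki67, a marker of dividing cells (120 CPM in control), and cluster 15 had high Mki67 (1400 CPM). The summed member level was 2327 CPM in control cluster 0 and 1590 in control cluster 15. The Mll3-labelled cells of these clusters were at 1899 and 1624 CPM, and the Mll4-labelled ones at 2314 and 1543 CPM. Within the Mll3/4-labelled library it ran from 1551 CPM in cluster 24, with Mki67 at 1643 CPM, to 2386 in cluster 26, with Mki67 at 1741 CPM. Clusters 22 and 23, with Mki67 at 76 and 108 CPM, were at 2283 and 1873 CPM. The member sum was thus lower where Mki67 was high in clusters 0, 15 and 24, but not in cluster 26.

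Single members followed the clusters. Ifit1 was at 19.0 CPM in control cluster 0 and 2.1 in control cluster 15, and at 40.1, 21.5, 8.4, 13.2 and 17.4 CPM in clusters 22 to 26 in order. Ifit3 was at 15.1 and 0 CPM in control clusters 0 and 15, and at 31.5, 8.9, 2.2, 14.4 and 3.7 CPM in those 5. Iigp1 was at 40.4 and 13 CPM in the 2 control clusters, and at 18.4, 12.6, 4.7, 3.6 and 6.0 CPM in the 5. Xaf1 was at 79.3 and 54.7 CPM in the control clusters and at 47.5, 31.3, 24.8, 26.3 and 39.6 CPM in the 5, all below both control clusters. Lgals3bp was at 13.5 and 6.3 CPM in the control clusters and at 26.0, 26.5, 16.1, 26.3 and 13.4 CPM in the 5, above both except in cluster 26.

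The choice of control cluster set the direction of the member median. Set against control cluster 0 alone, the Mll3/4-labelled class had a median of −0.41 with 1 member higher (13.6% of all genes) and 10 lower (21.1%) of 24. The median of all genes there was −0.09. Against control cluster 15 alone it had a median of 0.56 with 11 higher (16.8% of all genes) and 2 lower (16.3%) of 23, and a median of −0.01 over all genes. The near-0 median of the whole class lies between these. Cluster 0 had a median depth of 3345.5 UMIs and cluster 15 one of 9661. Markers of other cell types also differed within the class. The 9 neutrophil markers summed to 2436, 1796, 6358 and 81.3 CPM and the 6 granulocyte progenitor markers to 798, 956, 879 and 47.2 CPM. Their part in the member ratios was not tested. Plasmacytoid dendritic markers, the type known for high interferon output, summed to 4.71, 1.74, 0 and 6.85 CPM, with Siglech, Klk1 and Cd209d at 0 in both control and Mll3/4.

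**Figure D4:**
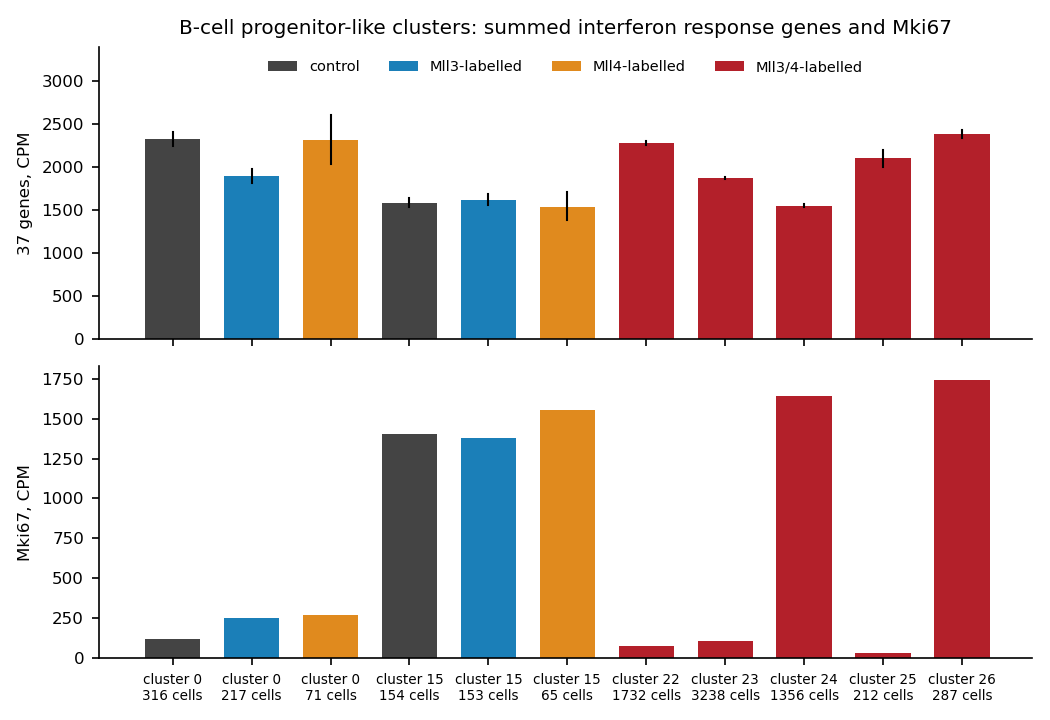
Summed level of the 37 members (upper bars, CPM with 95% counting intervals) and level of Mki67 (lower bars, CPM) in each B-cell progenitor-like cluster, coloured by library, with the number of cells under each bar. Control cluster 15 has more Mki67 (1400 CPM) and a lower member sum (1590 CPM) than control cluster 0 (120 and 2327 CPM), and cluster 26 has both high.

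In the B-cell progenitor-like cells of the Mll3-labelled library, few members were called. Of 28 that passed, 4 were lower, where 6.39% of all genes tested were, and 1 was higher, against 1.54%. The median was −0.27, and −0.08 over all genes. TMM scaling gave 2 higher and 3 lower. The lower members were Irgm1 (−1.66, −2.43 to −1.14), Usp18 (−1.40, −2.55 to −0.68), Iigp1 (−1.31, −2.11 to −0.74) and Xaf1 (−0.59, −0.94 to −0.28). Irgm1 kept its call in all 15 alternatives. Usp18 lost it at Leiden resolution 0.5 (−0.51) and in cluster 15 alone (−0.41), Iigp1 when thinned (−0.25), and Xaf1 in 5 of 15, TMM among them (−0.51). Oas1a was past 1.5-fold on the high side (0.68), but its interval, −0.05 to 1.57, holds 0. In the Mll4-labelled library 7 members passed, 0 were higher, where 20.1% of all genes tested were, and 2 were lower, against 10.5%. These 2 were Bst2 (−0.67) and Ifi27l2a (−0.61). No test was run with 1 library a group, so these counts have no p. Over all genes the median there was 0.11, and TMM scaling moved every ratio down by 0.25.

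The Mll3/4-labelled library was also set against the Mll3-labelled library, the single deletion with more B-cell progenitor-like cells. Of 29 members that passed, 8 were higher, where 16% of all genes tested were, and 1 was lower, against 12.7%. Of the 29, 26 had at least 20 UMIs in both groups. Ifit1, Usp18 and Oasl1, all called higher, had only 12, 14 and 18 UMIs among Mll3-labelled cells and passed through their level in the Mll3/4-labelled library. Against Mll3-labelled cluster 0 alone the direction turned, with 2 higher (12.9% of all genes) and 5 lower (14.5%) of 19 and a median of −0.09. Against cluster 15 alone it did not, with 10 higher and 1 lower of 22 and a median of 0.41. Of 7172 genes tested there, 1365 were higher and 1069 lower. The higher members were Ifit1 (4.17 against 20.8 CPM, log2 ratio 2.08, 1.51 to 3.28), Irgm1 (9.37 against 41.3, 2.03, 1.60 to 2.75) and Usp18 (4.86 against 19.4, 1.80, 1.24 to 2.87), followed by Ddx58 (1.14), Lgals3bp (1.11), Gbp2 (0.89), Oasl1 (0.76) and Gbp7 (0.69). Ifi27l2a was lower (−0.63). Against cluster 0 alone Gbp2 (0.25), Gbp7 (0.23) and Ifi27l2a (−0.45) were under 1.5-fold. Ifit1, Irgm1, Usp18, Ddx58 and Lgals3bp stayed past 1.5-fold in all 15 alternatives, without applying the count filter again. With the filter, only 2 members were higher against cluster 0 alone. With cells thinned to 2000 UMIs it was 2 of 13 members, against 490 of 4511 genes tested. The member median was 0.26, and 0.03 over all genes. The 3 leading genes of this pair include 2, Irgm1 and Usp18, that were low in the Mll3-labelled library and within 1.5-fold of control in the Mll3/4-labelled one. The comparisons with control share its cells, as does this pair with the Mll3-labelled cells above.

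The rest of the pathway was taken from a list of 114 genes, of which 113 were found. In B-cell progenitor-like cells of the Mll3/4-labelled library against control, 74 passed. Of these, 9 were higher, where 12.6% of all genes tested were, and 13 lower, against 15.3%, with a median of −0.13 beside −0.05 for all genes. These shares are near the background. The 9 interferon ligands on the list had 0 UMIs in control cells of this class, and the Mll3/4-labelled library held 3 UMIs of Ifng and 2 of Ifnk. Of the receptors, Ifnar1 was at 47.1 CPM (control) and 51.0 (Mll3/4), and its partner Ifnar2 at 69.5 and 43.6 (−0.66). Ifngr1 was at 43.7 and 24.7 CPM (−0.80), and its partner Ifngr2 at 46.2 and 69.9 CPM (0.59). Il10rb, shared with other cytokines, was at 21.4 and 18.7 CPM, and Ifnlr1 did not pass. The interval for Ifnar1 (−0.12 to 0.36) holds 0, while the 2 chains of the type II receptor lay on opposite sides of control.

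Jak1, the kinase used by both receptor types, was at 119 and 192 CPM (0.68). Jak2 was at 18.5 and 25.1 CPM, Tyk2 at 14.5 and 9.71 and Stat3 at 30.5 and 29.1 CPM, all under 1.5-fold. Of the interferon regulatory factors, Irf1, a mediator of the type II response, was at 33.6 and 16.2 CPM (−1.01) and Irf5 at 27.7 and 1.91 CPM (−3.30). Irf2 (134 and 119 CPM) and Irf3 (41.2 and 45.6 CPM) were close between libraries. Tmem173, the adaptor STING that links DNA sensing to interferon output, was at 24.2 and 1.28 CPM (−3.47). Aim2, a DNA sensor of the inflammasome, was at 31.7 and 11.0 CPM (−1.45).

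Of the Ifi203 paralogs that passed, 4 lay further from control than Ifi203 itself, while Mndal (0.35) and Ifi214 (−0.15) did not. Ifi208 was at 11.9 CPM (control) and 139 CPM (Mll3/4), a log2 ratio of 3.44, Ifi213 at 6.91 and 40.9 (2.40) and Ifi206 at 21.7 and 79.9 (1.84), while Ifi209 was at 188 and 57.9 CPM (−1.68). Members of one gene family thus differed in opposite directions within the class. Slfn2, which restrains proliferation of lymphocytes, was at 15.4 and 77.5 CPM (2.26). Ifit1bl1 (14.1 and 4.20 CPM, −1.54) and Gbp3 (16.0 and 5.49 CPM, −1.39) were lower. Over all cells, 43 of 97 pathway genes were higher, against 22.4% of all genes tested, and 14 lower, against 23.4%, with a median of 0.48 beside 0.002 for all genes. Of 6 Ifitm genes, which block viral entry, 3 passed in the class and 2 were lower, against 15.3% of all genes (Ifitm1 −4.93, Ifitm3 −1.53).

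In HSC/MPP-like cells, the Mll3-labelled library was close to control. The summed member level was 1778 (1760 to 1796) CPM in control, 1679 in the Mll3-labelled and 1581 (1534 to 1629) in the Mll4-labelled library. Without Psmb8 and Bst2 the sums were 927, 930 and 988 CPM, with the Mll4-labelled library highest, so the lower full sum there rested on those genes. Of 35 members that passed for Mll3 against control, 2 were higher, where 1.32% of all genes tested were, and 1 was lower, against 2.57%. Ifi27l2a was at 25.3, 43.9 and 16.8 CPM in control, Mll3 and Mll4, a log2 ratio of 0.77 (0.63 to 0.96) for Mll3. The difference was larger in hashtag 1 cells, at 22.7 CPM in control and 51.4 among Mll3-labelled cells. Hashtag 2 cells were at 29.1 and 33.3 CPM, and alone gave 0.19, under 1.5-fold. Oas1a was at 6.84, 12.1 and 11.3 CPM (0.74, 0.50 to 1.14), above control in both single deletions, but at 0.35 for Mll3 in CD150+CD48− cells. Irgm1, a GTPase that regulates the other members of its family, was at 30.6, 17.3 and 37.6 CPM (−0.79, −1.03 to −0.62) and kept its call in all 14 alternatives. Irgm1 was thus below control among Mll3-labelled cells of both classes. The member median was 0.02 and that of all genes −0.03. Iigp1 was at 20.9, 28.8 and 68.9 CPM, and for Mll3 against control its ratio was 0.45 (0.27 to 0.66), on the other side of control from the B-cell progenitor-like cells.

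In HSC/MPP-like cells of the Mll4-labelled library, 3 GTPases were called higher than control and 6 members of other roles lower. Of 31 members that passed, 4 were higher, where 19% of all genes tested were, and 6 were lower, against 5.29%. Of the 31, 29 had at least 20 UMIs in both groups. Oas3 and Ifit1, both called lower, had only 15 and 16 UMIs among Mll4-labelled cells and passed through their level in control. The member median was 0.02 and the median of all genes 0.20. TMM scaling moved every ratio down by 0.24 and gave 3 higher and 11 lower with a median of −0.22, so directions here are read against that shift. At a finer clustering (Leiden resolution 2), 232 of the 475 Mll4-labelled HSC/MPP-like cells formed a cluster with 1 Mll3-labelled, 3 Mll3/4-labelled and 0 control cells. H2-Eb1, Iigp1, H2-Aa and Cd74 were among its 10 leading genes, and it stayed unnamed because markers of another class outnumbered those of HSC/MPP. It may be that library and not a type. The HSC/MPP-like class redrawn at that resolution left it out, held 304 Mll4-labelled cells and gave 2 members higher (20.2% of all genes) and 5 lower (6.57%) of 24, with Iigp1 and Gbp2 (0.62) still higher and Igtp, no longer called, at 0.31. Iigp1 was furthest (1.68, 1.47 to 1.97, and 1.44 under TMM). Igtp was at 18.6, 20.2 and 35 CPM (0.88, 0.57 to 1.24) and Gbp2 at 23.2, 24.8 and 46.3 CPM (0.97, 0.71 to 1.28). For these 3 the Mll3-labelled library lay much nearer to control than to the Mll4-labelled one. The other GTPases were not called. Ifi47 was at 67.9, 55.6 and 91.6 CPM, Gbp7 at 67.5, 65.1 and 86.8, Irgm2 at 9.07, 9.99 and 13.5 and Irgm1 at a ratio of 0.29 (−0.02 to 0.60). Oas1a (0.65, 0.12 to 1.29) was called higher but was at 0.41 under TMM.

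The lower members began with Rtp4, a chaperone of membrane receptors, at 35.9, 36.0 and 18.6 CPM (−0.91, −1.39 to −0.54). Bst2 was at 186, 163 and 103 CPM (−0.85, −1.04 to −0.68). Isg15 was at 18.3, 19.9 and 10.2 CPM (−0.78, −1.45 to −0.28), and Xaf1 at 25.1, 25.3 and 14.6 CPM (−0.74, −1.28 to −0.32). In each of these 4, control and Mll3 were close and Mll4 was below both. Xaf1 kept its call in only 8 of 14 alternatives and was at −0.16 at Leiden resolution 2. Oas3 (9.73, 10.4 and 5.47 CPM, −0.73, −1.69 to −0.07) and Ifit1 (10.1, 9.86 and 5.84 CPM, −0.70, −1.63 to −0.06) had intervals that reached near 0. Of the transcription factors, Stat2 was at 10.3, 11.5 and 11.7 CPM, Irf9 at 35.1, 40.1 and 42.7 and Irf7 at 9.64, 7.93 and 7.30 CPM, none called. Psmb8 was at 664, 586 and 490 CPM and Ifi203 at 189, 177 and 149 CPM. The 13 HSC/MPP-like cells of the Mll3/4-labelled library had Stat2 at 4.58, Irf9 at 27.5, Isg15 at 9.17 and Ifit1 at 22.9 CPM, from few UMIs each.

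Of the other pathway genes 71 passed in this comparison, 9 higher, against 19% of all genes tested, and 5 lower, against 5.29%, near or under the background. Tap1, the peptide transporter of antigen presentation, was at 94.6 CPM in control and 231 in the Mll4-labelled library (1.28). Of 8 MHC class II genes, whose expression type II interferon can raise, 6 passed and 4 were higher, against the same 19%, with H2-Eb1 at 13.3 and 85.7 CPM (2.60), H2-Aa at 20.3 and 65.7 and Cd74 at 23.9 and 81.7. Markers of conventional dendritic cells, a list that holds H2-Aa and Cd74, summed to 103 CPM in HSC/MPP-like cells of control and 274 in those of the Mll4-labelled library, and neutrophil markers to 1217 and 3301 CPM. Their part in these ratios was not tested.

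The differences of Iigp1 and Igtp lay mainly in the cells of 1 hashtag, and that of Gbp2 did not. In the Mll4-labelled HSC/MPP-like cells, Iigp1 was at 27.7 CPM in 301 hashtag 1 cells and 150 in 166 hashtag 2 cells, against 19.9 and 22.6 in control and 24.4 and 32.1 among Mll3-labelled cells. Igtp was at 22.5 and 60.8 CPM in the Mll4-labelled library and 17.6 and 19.6 in control. Gbp7 was at 73.2 and 114 CPM, Irgm2 at 9.22 and 21.3, and Gbp2, less divided, at 42.1 and 56.5. Hashtag 1 cells alone gave a ratio to control of 0.45 for Iigp1 and 0.33 for Igtp, both under 1.5-fold. Gbp2 stayed past 1.5-fold there, at 42.1 CPM against 23.8 in hashtag 1 cells of control. It kept its call in all 14 alternatives. Of 16 members that passed between the hashtags, 3 were higher with hashtag 2, where 2.34% of all genes tested were, and 0 lower, against 2.54%.

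The 7 GTPases summed to 293 and 550 CPM in the 2 hashtags of Mll4-labelled HSC/MPP-like cells, and to 231 and 246 in control. Hashtag 2 was also higher in each of the other 9 classes of that library with both hashtags, with overlapping intervals in T/NK-like and conventional dendritic-like cells. The sums were 164 and 368 CPM in erythroid-like, 108 and 190 in granulocyte progenitor-like, and 226 and 433 in basophil/mast-like cells. The 10 genes of the Isg15, IFIT and OAS groups summed to 74.9 and 99.1 CPM in Mll4-labelled HSC/MPP-like cells, with overlapping intervals, and to 92.1 and 96.9 CPM in control. In conventional dendritic-like cells, 88 of 103 of which carried hashtag 2, the GTPases summed to 794 CPM. Whether the hashtags mark animals is not given.

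**Figure D5:**
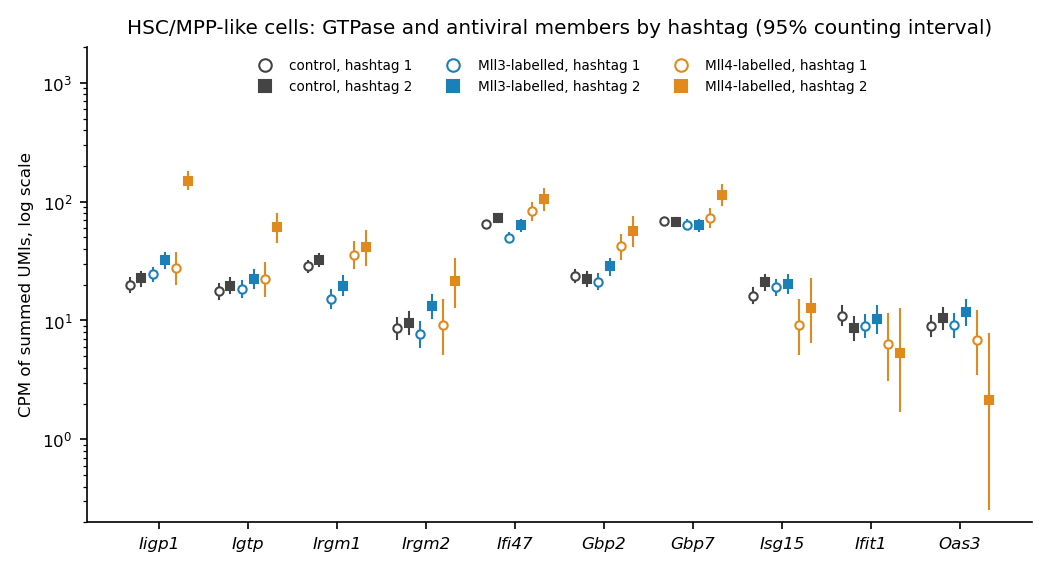
Level of 7 GTPases and of Isg15, Ifit1 and Oas3 (x axis) in HSC/MPP-like cells by library and hashtag (y axis, CPM on a log scale, 95% counting intervals; open circles hashtag 1, filled squares hashtag 2). Iigp1 is at 27.7 and 150 CPM in the 2 hashtags of the Mll4-labelled library, and at 19.9 and 22.6 CPM in control.

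The hashtags also divided other comparisons. Over all cells of the Mll3-labelled library, 6 of 36 members were higher with hashtag 2, where 2.88% of all genes tested were, and 0 lower, against 0.518%. Among the 6 was Isg15 at 9.32 and 16.4 CPM. Over all cells of the Mll4-labelled library 5 of 36 were higher, against 2.52%, and 1 lower, against 2.64%. In control 0 of 37 were called either way, against 0.234% and 0.241%, and in the Mll3/4-labelled library 0 of 35 were higher and 1 lower, against 1.42% and 3.18%. Within B-cell progenitor-like cells, hashtag 2 had 1 of 20 members higher and 0 lower in control (background 1.6% and 2.87%), and 2 of 14 higher and 1 lower among Mll3-labelled cells (1.93% and 3.14%). It had 1 of 3 higher and 0 lower among Mll4-labelled cells (6.57% and 4.98%), and 0 of 35 higher and 1 lower, Ifit3, among Mll3/4-labelled cells (1.29% and 3.09%). Within HSC/MPP-like cells it had 1 of 35 higher and 0 lower in control (0.367% and 0.68%) and 1 of 34 higher and 1 lower among Mll3-labelled cells (1.12% and 1.21%). Against control over all cells, the Mll4-labelled library had 6 of 36 members higher, where 17.2% of all genes tested were, and 4 lower, against 13%. TMM scaling gave 4 and 4. The higher members included Iigp1 (1.48, and 0.046 with hashtag 1 cells alone), Gbp2 (1.31) and Igtp (0.87), and the lower ones Bst2 (−1.20) and Rtp4 (−0.91). The Mll3-labelled library had 1 of 37 higher (Oas1a 0.86), against 0.667%, and 1 lower (Irgm1 −0.59), against 2.44%.

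Single cells carried members in small numbers. Each cell was thinned to 2000 UMIs, and shallower cells were left out. The mean was 4.19, 3.81, 3.36 and 4.07 member UMIs per B-cell progenitor-like cell, from 441, 351, 74 and 6748 cells. In HSC/MPP-like cells it was 3.68, 3.52 and 3.34 UMIs for control, Mll3 and Mll4. Cells with at least 15 member UMIs, a number chosen after the values were seen, were rare. They made up 5 of 441 B-cell progenitor-like cells in control (1.13%), 3 of the Mll3-labelled, 0 of the Mll4-labelled and 78 (1.16%) of the Mll3/4-labelled ones. Those 78 held 5.44% of member UMIs, and 38 of them carried hashtag 1 and 39 hashtag 2. The B-cell progenitor-like means thus differed little between control and the Mll3/4-labelled library, and a small share of cells had high counts in both.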

How the data were processed

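The deposited files hold UMI counts per gene and cell barcode, which the authors made with Cell Ranger 6.1.2 on mm10, per the submitters' processing notes; the values are whole counts with no normalization. They cover 32285 gene and 15 antibody features in 4 libraries. How reads shared by near-identical genes were counted is not given in the sources used here. The members, gene lists and markers were chosen with earlier results of these data known.

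Barcodes were kept with 10% mitochondrial UMIs or fewer, at least 500 genes and at least 1000 UMIs. Doublet scores came from Scrublet (scanpy 1.11.5, expected rate 0.06), and the top scores were removed at 0.8% per 1000 barcodes. Cells were clustered together from counts scaled to 10000 UMIs, 2000 variable genes without the interferon, Ifitm, Xist, Y-linked and mitochondrial genes, values capped at 10, 30 principal components, 15 neighbours and Leiden at resolution 1 with seed 0. The 27 clusters were named from 112 markers of 14 classes, and 11 classes were found. Free RNA was not corrected.

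UMIs were summed per class and library and given as CPM with exact Poisson 95% intervals. Log2 ratios had a pseudocount of 1 CPM. A gene passed where the mean CPM of the pair times the smaller total gave at least 20 counts, and was called at 1.5-fold. With 1 library per group there was no test. The fully described members were those called with an interval that leaves out equality in B-cell progenitor-like cells of the Mll3/4-labelled library or in HSC/MPP-like cells of a single deletion, at most 12 per comparison, with Stat2, Irf9, Irf7 and Isg15 always. Receptors, kinases, STATs and IRFs of the pathway were always named, except 1 that is not reported here, and of its other genes the 10 furthest from control. Members that other comparisons, cell types or hashtags single out were named after their values were seen. Promoters came from RefSeq on GRCm38.p6, and 26 of 32 member windows matched the start of an annotated transcript. The ratio and interval code was tested on simulated data. Alternatives covered scaling, pseudocount, filters, clustering, thinning, hashtags and single clusters.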

Additional observations from a re-analysis of the deposited data

Results flagged for a closer look

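In the Mll3-labelled library the GTPase gene Iigp1 lay on opposite sides of control in 2 cell classes. In B-cell progenitor-like cells it was at 23.9 CPM in control and 9.03 among Mll3-labelled cells, a log2 ratio of −1.31 (95% counting interval −2.11 to −0.74). With cells thinned to 2000 UMIs that ratio was −0.25 and under 1.5-fold. In HSC/MPP-like cells it was at 20.9 and 28.8 CPM, a ratio of 0.45 (0.27 to 0.66), under 1.5-fold. The difference between the classes was not tested, and each class has 1 library per group.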

How the results depend on the processing

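With 1 library per group there is no replicate error, so calls rest on counting error and on settings. No paired analysis was possible because each group has 1 library. Over the alternatives, members higher and lower ranged from 20 to 24 and 2 to 5 for Mll3/4 against control over all cells, 0 to 11 and 2 to 10 in B-cell progenitor-like cells, 0 to 2 and 1 to 11 for Mll3 there, 0 to 6 and 0 to 9 for Mll4 there, 1 to 11 and 0 to 5 for Mll3/4 against Mll3 there, and 1 to 5 and 1 to 11 for Mll4 in HSC/MPP-like cells. Depth limited the Mll4-labelled B-cell progenitor-like cells most: at 100 expected counts they gave no value.

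The cause of each change below was not tested. For Mll3/4 over all cells, the member median was 0.71 with a pseudocount of 5 CPM, 0.73 as a mean of per-cell shares and 0.76 thinned. For Mll4 over all cells it was 0.015 as per-cell shares, 0.046 with hashtag 1 cells and −0.11 thinned. For Mll3 over all cells it was −0.17 with hashtag 1 and 0.11 with hashtag 2. In B-cell progenitor-like cells, Mll3/4 against control gave 0.51 at Leiden resolution 0.5, and 0.56 and −0.41 against clusters 15 and 0, both chosen after seeing the data. Mll3/4 against Mll3 gave −0.29 at 100 expected counts, and Mll4 against control −0.73 at resolution 0.5 and −0.69 in cluster 15. In HSC/MPP-like cells Mll4 gave 0.38 thinned. Calls that changed sign in B-cell progenitor-like cells were Stat2 for Mll3/4 (0.16 at resolution 0.5 and 0.16 against cluster 15), Ddx58 (−0.14) and Ifit3 (−0.44) for Mll3/4 against cluster 0, and Bst2 (0.10) and Ifi27l2a (0.13) for Mll4 in cluster 0. In HSC/MPP-like cells for Mll4 they were Isg15 thinned (0.014) and Rtp4 in CD150+CD48− cells (0.14).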
